A study of Oryzias latipes with 60 samples.

Results

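A set of 200 genes of medaka (Oryzias latipes, a small fish of fresh water) is described here. By group median, its members had more RNA in whole juvenile fish kept in a dish with saline or with DMSO than in fish left in ordinary housing. This held in both genotypes studied. They were chosen from the 17144 genes, of 20459 in the authors' table, with a mean of at least 1 CPM (read counts scaled to the size of the library and adjusted for its composition) over 60 fish. For each gene the median log2 CPM of the untreated fish was subtracted from that of the saline fish and from that of the DMSO fish, in each genotype. The smallest of these 4 differences is the gene's score, and the 200 genes of highest score are the members. Saline, DMSO and untreated fish, 30 in all, therefore set the membership, and their differences are given without a test. The 30 fish given a drug had no part in it other than through the filter and the scaling between libraries. For 5 members the mean over the 45 fish without trametinib was under 1 CPM, so they passed the filter only through their trametinib fish, and no member passed only through its cisplatin fish.

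The fish were 3 to 4 weeks old and about 10 mm long. Transgenic fish carried xmrk, and the labels give neither its promoter nor the number of founder lines. Fish of both genotypes spent 5 days in a petri dish with 70 µM cisplatin (10 transgenic and 5 wild-type fish), 20 nM trametinib (10 and 5), saline (5 and 5) or DMSO (5 and 5), and 5 fish of each genotype had no treatment and stayed in regular housing. No group had a dish without a vehicle or a vehicle without a dish, so vehicle and dish cannot be told apart, and each drug came with its own vehicle. Nothing says which fish shared a dish, and each library was taken as 1 fish, so p-values measure the spread between these libraries. RNA came from the whole body, in which fewer cells of a type and less RNA per cell cannot be told apart.

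The receptor encoded by xmrk is a permanently switched-on form of a fish epidermal growth factor receptor. It is known from melanoma of Xiphophorus hybrids, and it signals in part through the kinases MEK and ERK. Trametinib inhibits MEK. Cisplatin, a platinum drug, forms crosslinks in DNA and acts most strongly on dividing cells. The table names genes by Ensembl identifier alone, and 0 of the 20459 identifiers matched the symbols, positions or sequences at hand. What the members encode is therefore not given, no sequence is shown, and neither the transgene nor tissue markers could be looked up to check the labels.

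Library totals lay between 34788594 and 67018564 counts, with a median of 51038009. The TMM factor, which corrects for RNA composition, was under 0.8 in 6 fish (saline fish 17, cisplatin fish 21 and 31 and trametinib fish 63 among transgenic fish, cisplatin fish 40 and DMSO fish 47 among wild-type fish). It was 0.234 in fish 17 and 0.292 in fish 21, against at most 1.28 in any library. Results that turn on these libraries are also given without them.

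The scores of the 200 members ran from 1.13 to 4.97 on the log2 scale, with a median of 1.41. They were at least 2 in 36 members and at least 3 in 7, and 281 of the 17144 genes had a score of at least 1. The median difference over the members was 1.89 for saline and 1.63 for DMSO in transgenic fish, and 1.75 for saline and 1.85 for DMSO in wild-type fish. Most often it was transgenic DMSO fish that set the score: their difference was the smallest of the 4 in 83 members, against 31 for transgenic saline, 49 for wild-type saline and 37 for wild-type DMSO. The boundary of the set passed through a dense run of genes. ENSORLG00000018901 and ENSORLG00000017742 were the last inside, both with a score of 1.13, and ENSORLG00000017137 and ENSORLG00000005095 were the first outside, both also with a score of 1.13.

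The members were neither mostly abundant nor mostly rare transcripts. Their mean level had a median of 13.1 CPM and a range of 1.01 to 2339 CPM, against a median of 15.9 CPM over all 17144 genes. A mean above 100 CPM was reached by 22 members, or 11%, against 8.06% of all genes. They varied more from fish to fish. The standard deviation of log2 CPM within groups had a median of 0.52 over the members and 0.33 over all genes. Together they took 0.768% to 1.91% of the counts of a dish fish, whatever the dish held, against 0.374% to 0.458% in untreated fish, with no overlap. High vehicle and low untreated levels chose the members, which favours this gap.

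A level per fish was then taken as the median over the members of the fish's log2 CPM minus the untreated median of its genotype. It averaged 1.67 ± 0.223 in cisplatin, 1.77 ± 0.229 in trametinib (SD, n = 10 each), 1.87 ± 0.130 in saline, 1.63 ± 0.0388 in DMSO and 0.000803 ± 0.0465 in untreated transgenic fish (SD, n = 5 each). In wild-type fish it averaged 1.72 ± 0.0670 in cisplatin, 1.69 ± 0.142 in trametinib, 1.73 ± 0.123 in saline, 1.90 ± 0.190 in DMSO and -0.0216 ± 0.0512 in untreated fish (SD, n = 5 each). Drug and vehicle fish thus lay in the same range. All 50 dish fish lay between 1.35 and 2.19, and no untreated fish lay above 0.0677. Leaving out the 6 libraries of low TMM factor narrowed the range of dish fish to 1.35 to 2.07. The untreated fish took part in the choice of the members, which works towards a high value in any dish group, so these distances carry no test. Levels of untreated fish are measured from the median of their own group, which pulls them towards 0 and narrows their SD.

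**Figure D1:**
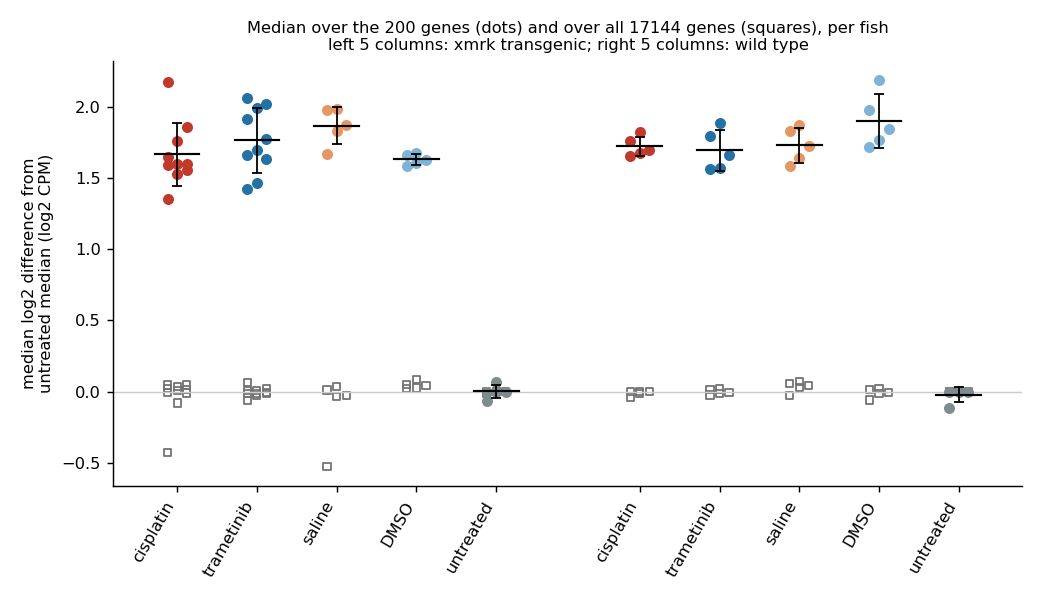
Median over the 200 genes (filled dots) and over all 17144 genes (open squares) of the log2 CPM of a fish minus the median of untreated fish of its genotype, with 1 dot and 1 square per fish, grouped by treatment. Bars are the group mean and SD of the dots. All 50 dish fish lie between 1.35 and 2.19 and the 10 untreated fish near 0, while the squares lie near 0 except in 2 transgenic fish, 1 with cisplatin and 1 with saline.

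Gene by gene, most members stayed above the untreated level under both drugs. The median log2 difference from untreated fish over the members was 1.60 for cisplatin and 1.76 for trametinib in transgenic fish, against 0.01 and -0.02 over all genes. In wild-type fish it was 1.72 for cisplatin and 1.69 for trametinib, against -0.00 for both over all genes. The group median exceeded that of untreated fish in 191 members for cisplatin and in all but 1 for trametinib in transgenic fish, and in 195 and 198 in wild-type fish. In 185 of the 200 it did so in all 4 drug groups. The low untreated medians that chose the members favour such differences, so they carry no test.

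Separation of whole groups was rarer. Every transgenic cisplatin fish lay above every untreated fish for 108 members, where 6.81% of all genes did so, and every transgenic trametinib fish for 130 (6.32% of all genes). For transgenic vehicle fish, which chose the members, the counts were 125 for saline (8.01%) and 165 for DMSO (12.3%). Among wild-type fish they were 147 for cisplatin (19.7%), 142 for trametinib (13.4%), 174 for saline (16.4%) and 165 for DMSO (14.2%). A group of 10 has to clear the untreated fish with more animals than a group of 5, so counts from groups of different size are not set against each other. In 57 members all 50 dish fish lay above all untreated fish of their genotype, as in 1.57% of all genes. Within transgenic fish 73 members did so (2.23% of all genes) and within wild-type fish 107 (5.9%). Low untreated levels also chose the members, which favours separation in every dish group, drugs included. The counts over all dish fish include the vehicle fish as well. Nothing is therefore read from the distance to the shares of all genes.

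Where a drug median fell between the untreated and the vehicle median differed by drug and genotype. For transgenic cisplatin fish it was at or above the saline median in 81 members, closer to saline than to untreated in 73, closer to untreated in 37 and at or below the untreated median in 9. The same 4 counts were 119, 73, 7 and 1 for transgenic trametinib fish against DMSO. They were 93, 85, 17 and 5 for wild-type cisplatin fish and 74, 100, 24 and 2 for wild-type trametinib fish. The share at or above the vehicle was thus 40.5%, 59.5%, 46.5% and 37% in these 4 groups, beside 53.1%, 47.4%, 54.3% and 49.9% of all genes. Because a high vehicle median was a condition of membership, shares below those of all genes are a product of the choice at least in part, and nothing is read from them.

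In 129 members the drug median stayed closer to the vehicle than to the untreated level in all 4 drug groups. The other 71 came closer to the untreated level in at least 1 group, and 15 reached or passed it in at least 1. Of these 71, 15 did so in both cisplatin groups and in neither trametinib group, while 1 did so in both trametinib groups and in neither cisplatin group. None did so in all 4. The vehicle and untreated medians used as limits here chose the members, and no share over all genes was taken. These counts are therefore only described. In the heat map of group medians the bands that are pale in the transgenic cisplatin column include the 15 genes of both cisplatin groups.

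**Figure D2:**
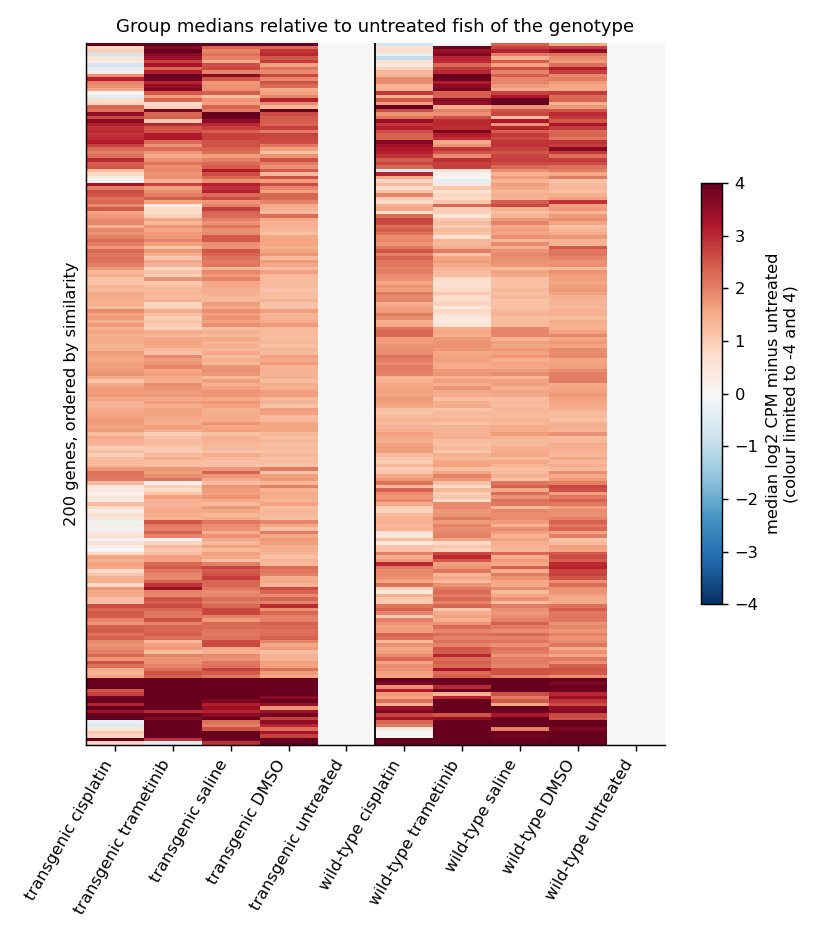
Median log2 CPM of each of the 200 genes in each of the 10 groups minus the median of untreated fish of the same genotype, as colour, with genes ordered by similarity and colours limited to -4 and 4. Red covers nearly the whole picture in the 8 dish groups. The pale bands in the transgenic cisplatin column include the 15 genes closer to untreated than to vehicle fish in both cisplatin groups and in neither trametinib group.

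ENSORLG00000001198 had the highest score, 4.97. Among transgenic fish it ranged from 6.08 to 80.6 CPM (median 18.7) in cisplatin and from 10.9 to 39.5 CPM (median 27.4) in trametinib. It stood at 51.7, 63.3, 84.3, 106 and 322 CPM in saline, at 4.55, 13.1, 36.2, 54.4 and 56.1 CPM in DMSO and at 0.436, 0.747, 0.863, 1.07 and 1.58 CPM in untreated fish. All 30 transgenic dish fish lay above the untreated ones, and the saline fish were the highest group by median. In wild-type fish the gene had 0.818, 1.63, 3.45, 9.41 and 26.8 CPM in cisplatin and 2.19, 5.64, 7.98, 15.6 and 17.6 CPM in trametinib. It had 6.23, 19.3, 32.4, 35.2 and 50.5 CPM in saline, 1.32, 25.6, 31.0, 32.98 and 34.8 CPM in DMSO and 0.272, 0.417, 0.950, 1.04 and 1.15 CPM in untreated wild-type fish. Here 1 cisplatin fish overlapped the untreated fish. None of the 9 comparisons called the gene (edgeR's quasi-likelihood test, adjusted by Benjamini-Hochberg).

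The second highest score, 4.41, belonged to ENSORLG00000010103. Its lowest, median and highest levels were 10.7, 23.7 and 38.98 CPM in transgenic cisplatin fish and 3.72, 9.13 and 25.5 CPM in transgenic trametinib fish. Transgenic saline fish had 5.96, 17.8, 31.3, 36.7 and 55.0 CPM, DMSO fish 7.53, 24.6, 25.9, 28.5 and 30.04 CPM and untreated fish 0.569, 0.960, 1.18, 1.60 and 1.72 CPM. The wild-type cisplatin fish lay close together, at 45.5, 49.1, 52.2, 55.0 and 55.3 CPM, against 3.78, 5.99, 7.82, 18.0 and 28.5 CPM with trametinib. Every wild-type cisplatin fish lay above every wild-type trametinib fish, with a log2 fold change of 2.00 with SE 0.49 (adjusted p = 0.0133 by edgeR's quasi-likelihood test). Wild-type saline fish had 25.5, 26.0, 32.95, 45.7 and 51.2 CPM, DMSO fish 20.3, 32.3, 39.9, 40.3 and 46.003 CPM and untreated fish 0.190, 0.289, 0.388, 0.433 and 0.563 CPM. In transgenic fish the drug groups overlapped and the log2 fold change was 1.03 with SE 0.34 (adjusted p = 0.0433).

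The most abundant members were ENSORLG00000006367, with a mean of 2339 CPM over the 60 fish, and ENSORLG00000004943, with 1167 CPM. ENSORLG00000006367 averaged 3059 ± 680.2 CPM in cisplatin, 1965 ± 854 CPM in trametinib (SD, n = 10 each), 2667 ± 669 CPM in saline, 1919 ± 319 CPM in DMSO and 776 ± 131 CPM in untreated transgenic fish (SD, n = 5 each). Its wild-type fish had 3156, 4209, 4465, 5564 and 6020.2 CPM in cisplatin, against 1183, 1662, 1666, 1824 and 1895 CPM in trametinib. These groups did not overlap, and the gene was higher in cisplatin than in trametinib fish by a log2 fold change of 1.51 in wild-type fish (SE 0.30, adjusted p = 0.00195) and of 0.63 in transgenic fish (SE 0.21, adjusted p = 0.0418, groups overlapping). ENSORLG00000004943 was called in none of the 9 comparisons. Its highest levels were found in libraries of low TMM factor, and whether these bear on it otherwise was not tested. Transgenic saline fish 17 stood at 6168 CPM against 1022 to 1352 CPM in the other 4 of its group, and transgenic cisplatin fish 21 at 4640.3 CPM against 954 to 2570 CPM in the other 9. Untreated fish had 286, 315, 324, 352 and 450.0 CPM when transgenic and 223, 309, 337, 404 and 417 CPM when wild type, below every dish fish of their genotype.

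**Figure D3:**
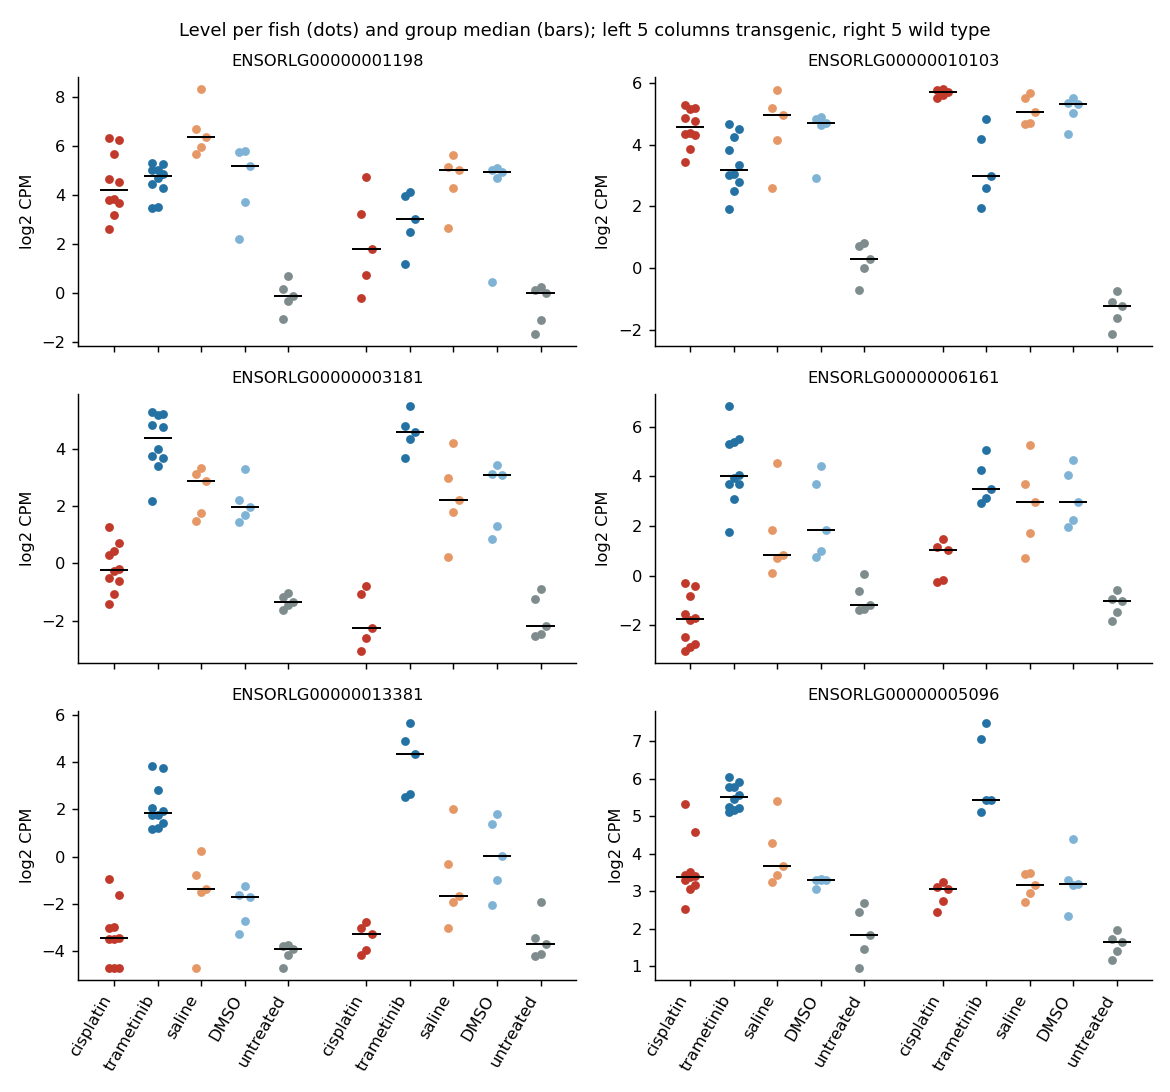
Log2 CPM per fish (dots) and group median (bars) of 6 members in the 10 groups, transgenic groups on the left and wild-type groups on the right of each panel. ENSORLG00000001198 and ENSORLG00000010103 have the highest scores. For ENSORLG00000003181, ENSORLG00000006161 and ENSORLG00000013381 every trametinib fish lies above every cisplatin and every untreated fish of its genotype, and ENSORLG00000005096 is highest under trametinib. ENSORLG00000013381 passed the filter only through its trametinib fish, and low untreated levels chose all members. Both favour such separation.

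The first question that can be tested on fish with no part in the choice is whether the members differed between the drugs. Among transgenic fish edgeR's quasi-likelihood test, adjusted by Benjamini-Hochberg over 18743 genes called 58 of the 200 members, 22 higher (6.2% of all genes were called higher) and 36 lower (6.18%) with cisplatin than with trametinib. Among wild-type fish it called 41, of which 16 were higher (3.68% of all genes) and 25 lower (2.52%). The shares of members were 11% higher and 18% lower in transgenic fish and 8% higher and 12.5% lower in wild-type fish. Of the 36 and 25 lower calls, 4 and 2 are members that passed the filter only through their trametinib fish, which favours such a call. The members as a whole moved little: their median log2 fold change was 0.01 in transgenic fish, the same as over all genes, and -0.10 in wild-type fish, against -0.03 over all genes. Drug and vehicle cannot be told apart in this contrast, since cisplatin came with saline and trametinib with DMSO. Without wild-type cisplatin fish 40 the wild-type count was 25, and with every library of low TMM factor left out it was 69, of which 36 were higher and 33 lower. For these 2 counts the share over all genes was not taken.

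**Figure D4:**
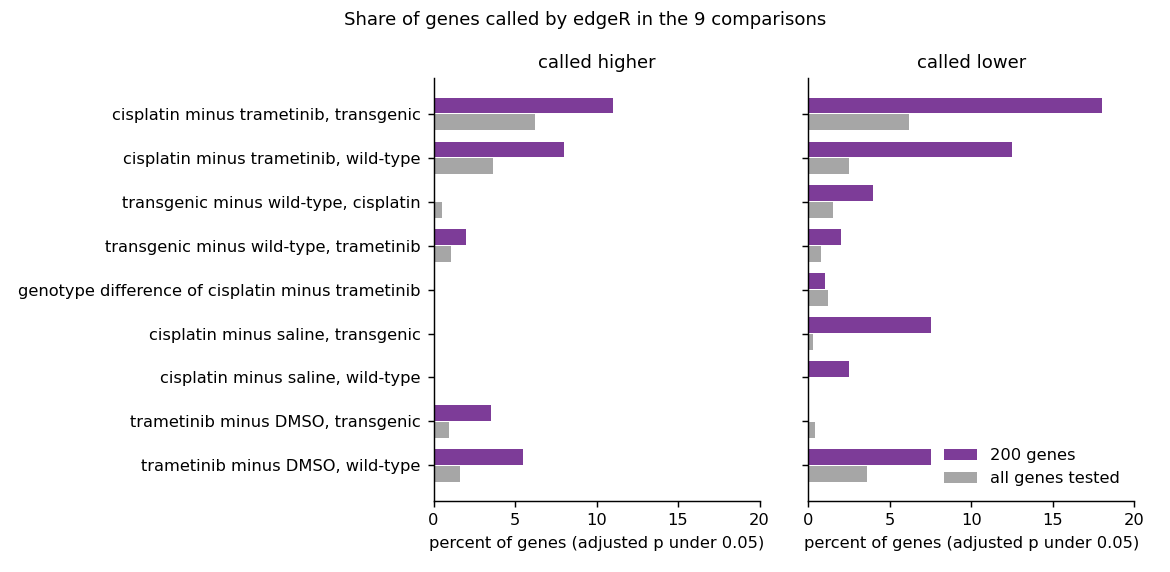
Percent of the 200 genes (purple) and of all genes tested (grey) called higher or lower at an adjusted p under 0.05 by edgeR in each of the 9 comparisons. The longest bars are those of lower calls for cisplatin minus trametinib, 18% of the members in transgenic and 12.5% in wild-type fish. Lower calls against saline or DMSO are favoured by the way the members were chosen.

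Calls were in part shared by the genotypes. Of the 58 transgenic and 41 wild-type calls 25 were shared with the same direction, 43.1% of the first list and 61.0% of the second, and none was called in opposite directions. Over all genes 16.9% of the transgenic and 33.8% of the wild-type calls were shared, and 33 genes were called in opposite directions. The genotypes have no fish in common, but both contrasts use the spread estimated by 1 fit. Of the 25 members 18 were lower with cisplatin in both genotypes (1.12% of all genes) and 7 were higher in both (0.982%).

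The 18 members lower with cisplatin in both genotypes include the largest fold change of the set between the drugs in each genotype. Their log2 fold changes had a median of -3.21 (range -6.50 to -0.98) in transgenic and -3.18 (range -8.57 to -1.16) in wild-type fish. The drug groups did not overlap for 10 of them in transgenic and 13 in wild-type fish. The calls that chose the 18 favour such separation, and no share over all genes was taken. Drug groups had 10 transgenic or 5 wild-type fish, so the 2 counts are not set against each other. Among the 18 are 2 members that passed the filter only through their trametinib fish, which favours a lower call. The -8.57 belongs to 1 of these, ENSORLG00000013381. Set against untreated fish, the median log2 difference of the 18 was 0.73 for cisplatin, 3.66 for trametinib, 2.14 for saline and 2.63 for DMSO in transgenic fish. In wild-type fish it was 0.68 for cisplatin, 3.74 for trametinib, 2.25 for saline and 2.38 for DMSO. By these medians the cisplatin fish stood nearest to the untreated fish and the trametinib fish farthest from them, with both vehicles in between. Lower levels with cisplatin than with trametinib chose the 18, and vehicle levels above untreated ones chose the members. The order is therefore set in part by the choice and is described without a test. The cisplatin median was at or below the untreated median in 4 of the 18 in transgenic and 3 in wild-type fish. These genes were not one co-varying unit: within the 4 drug groups the pairwise correlation of their deviations over the 30 drug fish had a median of 0.132.

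The 7 members higher with cisplatin in both genotypes showed smaller differences. Their log2 fold changes had a median of 0.97 in transgenic fish, where all 7 overlapped between drugs, and of 1.36 in wild-type fish, where none of the 7 did. Transgenic drug groups had 10 fish and wild-type ones 5, so overlap is not compared between the genotypes. The share of all genes without overlap between the drugs was not taken. Relative to untreated fish their median was 2.199 for cisplatin, 1.497 for trametinib, 2.17 for saline and 1.68 for DMSO in transgenic fish. For wild-type fish these values were 2.66, 1.52, 1.98 and 1.98. All 7 stayed above the untreated median in every dish group. The drug contrast chose the 7 and low untreated levels chose the members, so these levels are described without a test. The 7 include ENSORLG00000010103 and ENSORLG00000006367, described above.

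**Figure D5:**
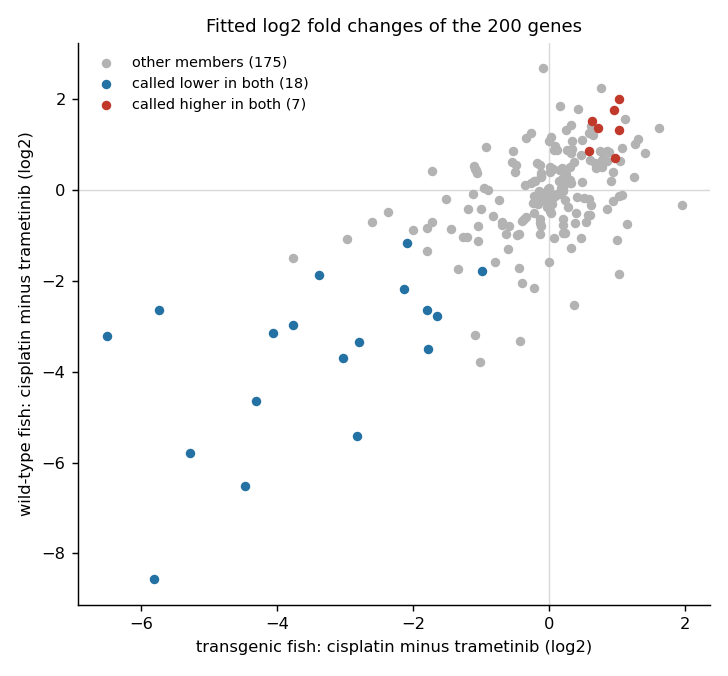
Fitted log2 fold change of cisplatin minus trametinib for each of the 200 genes in transgenic fish (horizontal axis) and wild-type fish (vertical axis). Blue dots are the 18 genes called lower in both genotypes, which reach -6.50 in transgenic and -8.57 in wild-type fish. The -8.57 belongs to ENSORLG00000013381, which passed the filter only through its trametinib fish. Red dots are the 7 called higher in both, and grey dots the remaining members.

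ENSORLG00000006161 had the largest transgenic difference among members whose groups did not overlap. It lay between 0.0844 and 0.784 CPM (median 0.259) in transgenic cisplatin fish, against 3.37 to 113 CPM (median 15.8) in transgenic trametinib fish. The log2 fold change was -6.50 with SE 0.62 (adjusted p = 3.37e-08). Wild-type fish had 0.8001, 0.844, 2.01, 2.17 and 2.74 CPM with cisplatin and 7.63, 8.71, 10.998, 19.2 and 33.2 CPM with trametinib, again without overlap (log2 fold change -3.21 with SE 0.74, adjusted p = 0.00819). Untreated fish had 0.345, 0.352, 0.401, 0.608 and 1.01 CPM when transgenic and 0.242, 0.327, 0.449, 0.485 and 0.6251 CPM when wild type. Transgenic cisplatin fish therefore overlapped the untreated range. Wild-type cisplatin fish all lay above it, with a median log2 difference from untreated fish of 2.07, against 4.01 for saline fish. Saline fish had 1.03, 1.57, 1.72, 3.48 and 22.9 CPM when transgenic and 1.57, 3.27, 7.79, 12.7 and 38.2 CPM when wild type.

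ENSORLG00000003181 had the second largest fold change among the wild-type calls without overlap. In wild-type fish it stood at 0.0828, 0.128, 0.170, 0.435 and 0.539 CPM with cisplatin and at 12.6, 20.0, 23.6, 27.5 and 44.5 CPM with trametinib. The log2 fold change was -6.53 with SE 0.66 (adjusted p = 2.60e-07). Transgenic cisplatin fish lay between 0.336 and 2.34 CPM (median 0.806), against 4.45 to 38.8 CPM (median 21.5) in transgenic trametinib fish, with a log2 fold change of -4.47 with SE 0.42 (adjusted p = 2.52e-08). Neither genotype showed overlap between the drugs. The wild-type vehicle fish lay between the drugs, at 1.11, 3.40, 4.597, 7.79 and 18.1 CPM in saline and 1.75, 2.43, 8.38, 8.60 and 10.8 CPM in DMSO, with only the highest saline fish reaching into the trametinib range. Untreated wild-type fish had 0.136, 0.144, 0.182, 0.380 and 0.497 CPM, and the cisplatin fish overlapped them.

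ENSORLG00000013381, of low abundance, had the largest wild-type fold change. Its mean was 3.15 CPM over the 60 fish but 0.406 CPM over the 45 without trametinib, so it is a member only through the trametinib fish, and its height in them was favoured by the filter. It stood at 0.0168, 0.0256, 0.0636, 0.0828 and 0.106 CPM in wild-type cisplatin fish, against 5.80, 6.22, 20.7, 30.3 and 51.2 CPM in the wild-type trametinib group (log2 fold change -8.57 with SE 1.04, adjusted p = 4.80e-06). In transgenic fish it ranged from 0 to 0.475 CPM (median 0.0520) with cisplatin and from 2.19 to 14.4 CPM (median 3.58) with trametinib (log2 fold change -5.81 with SE 0.66, adjusted p = 5.52e-07). No cisplatin fish reached a trametinib fish of its genotype. In 3 of the transgenic cisplatin libraries the gene had no read, so the size of these fold changes rests on few reads at the lower end. Wild-type DMSO fish, at 0.201, 0.464, 0.978, 2.59 and 3.43 CPM, also lay wholly below the trametinib fish, and so did transgenic DMSO fish, at 0.0654, 0.109, 0.270, 0.281 and 0.383 CPM.

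Higher calls were smaller. ENSORLG00000011915 had the smallest adjusted p among higher transgenic calls, all of which overlapped. It ranged from 32.4 to 106 CPM (median 80.9) with cisplatin, against 30.7 to 45.05 CPM (median 37.2) with trametinib (log2 fold change 0.97 with SE 0.15, adjusted p = 8.17e-05), with fish 21 the lowest of the cisplatin fish. In wild-type fish it had 40.3, 44.9, 54.2, 60.5 and 62.9 CPM with cisplatin and 26.3, 30.2, 31.8, 33.3 and 40.2 CPM with trametinib (log2 fold change 0.70 with SE 0.21, adjusted p = 0.047). These groups were adjacent but did not overlap. ENSORLG00000003947 stood at 15.6, 16.2, 19.6, 20.6 and 23.7 CPM in wild-type cisplatin fish and at 1.64, 6.04, 6.27, 6.38 and 7.45 CPM in the wild-type trametinib group (log2 fold change 1.78 with SE 0.31, adjusted p = 0.000473), with no overlap. In transgenic fish it had a median of 9.93 CPM (8.05 to 17.8) with cisplatin and 8.10 CPM (4.61 to 12.6) with trametinib, overlapped and was not called.

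Genotypes were compared within each drug. With cisplatin 8 members were called, all lower in transgenic than in wild-type fish (1.49% of all genes were called lower, and 0 members and 0.507% of all genes higher). With trametinib 8 were called, 4 higher (1.08% of all genes) and 4 lower (0.795%) in transgenic fish. At an unadjusted p under 0.05 there were 35 members higher and 31 lower with cisplatin, and DESeq2 called 11 higher and 10 lower. No share over all genes was taken for these counts or for those with libraries left out, so they are only described. The median log2 difference between genotypes over the members was 0.12 with cisplatin and 0.09 with trametinib, against 0.07 and -0.00 over all genes. The cisplatin count was 15 without transgenic fish 21, 4 without any 1 of wild-type fish 38, 39 and 41 and 5 without fish 40. The trametinib count was 5 without wild-type fish 48 or 50. Without all libraries of low TMM factor the counts were 19 and 24.

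ENSORLG00000005547 was called lower in transgenic fish with both drugs. With trametinib it ranged from 1.85 to 8.08 CPM (median 4.14) in transgenic fish, against 3.91, 11.9, 22.5, 26.5 and 43.5 CPM in their wild-type counterparts (log2 fold change -2.29 with SE 0.36, adjusted p = 0.000497). With cisplatin it ranged from 0.409 to 0.709 CPM (median 0.516) in transgenic fish, against 0.707, 1.32, 1.36, 1.82 and 3.12 CPM in their wild-type counterparts (log2 fold change -1.63 with SE 0.38, adjusted p = 0.0192). Only the lowest wild-type fish reached the transgenic range in either drug. The same order held in fish without a drug: saline fish had 0.899, 1.33, 1.44, 1.46 and 2.24 CPM when transgenic and 3.42, 7.04, 7.18, 12.6 and 14.0 CPM when wild type, and untreated fish 0.0698, 0.190, 0.338, 0.421 and 0.483 CPM when transgenic and 0.544, 1.03, 2.68, 2.76 and 3.29 CPM when wild type, with no overlap in either.

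The remaining trametinib calls between genotypes overlapped as well, and apart from ENSORLG00000005868 they are named after their values were seen. ENSORLG00000003912 (log2 fold change 2.85), ENSORLG00000019881 (1.87), ENSORLG00000005868 (0.76) and ENSORLG00000010091 (0.73) were higher in transgenic fish. ENSORLG00000020058 (-3.13), ENSORLG00000003976 (-1.30) and ENSORLG00000009285 (-1.07) were lower. Adjusted p over these 7 lay between 0.00273 and 0.0403. With cisplatin the 1 member without overlap was ENSORLG00000006161, whose values are given above (log2 fold change -2.34 for transgenic against wild-type fish, SE 0.60, adjusted p = 0.0353). That call was lost when any 1 of 9 fish was left out.

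Whether the difference between the drugs depended on genotype was tested directly, and 2 members passed, both with a lower cisplatin minus trametinib difference in transgenic fish (1.22% of all genes were called in this direction). None passed in the other direction (0.101% of all genes), while 24 members had an unadjusted p under 0.05 that way and DESeq2 called 7. The share over all genes was not taken for these 24 and 7, nor for counts with libraries left out. For ENSORLG00000005868 transgenic fish ranged from 12.9 to 18.1 CPM (median 15.8) with cisplatin and from 10.4 to 21.3 CPM (median 13.9) with trametinib. Wild-type fish had 16.8, 20.0, 20.8, 21.6 and 22.0 CPM with cisplatin and 7.35, 8.81, 9.37, 9.42 and 10.4 CPM with trametinib. The drugs thus separated fully in wild-type fish alone, and the difference of the log2 differences was -1.12 (SE 0.22, adjusted p = 0.00578). ENSORLG00000009716, named after its values were seen, ranged from 4.27 to 26.5 CPM (median 9.85) with cisplatin, against 16.1 to 62.7 CPM (median 41.2) with trametinib, in transgenic fish. Its wild-type fish had 19.6, 36.3, 42.3, 45.1 and 80.01 CPM with cisplatin and 23.4, 29.0, 31.6, 40.8 and 43.3 CPM with trametinib and overlapped (difference of the log2 differences -2.13, SE 0.53, adjusted p = 0.0351). When 1 fish was left out the number of calls lay between 1 and 13, the highest without transgenic cisplatin fish 21, and it was 24 without all libraries of low TMM factor.

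Each drug was then compared with its own vehicle. Vehicle fish chose the members by their high levels, which favours lower calls under a drug, so lower calls are only described. In transgenic fish cisplatin gave 15 called members, all lower than in saline (0.268% of all genes were called lower), and in wild-type fish 5, all lower (0.0268% of all genes lower, 0.0749% in either direction). The first are 15 of the 50 genes called lower in the whole table and the second are all 5 of the 5. By edgeR with all libraries no member was called higher with cisplatin in either genotype, where 0.0696% and 0.0482% of all genes were. At an unadjusted p under 0.05 there were 5 higher in transgenic and 10 in wild-type fish, and DESeq2 called 0 and 2. Shares over all genes were not taken for these counts or for those with libraries left out. The median log2 fold change over the members was -0.18 in transgenic fish, against 0.05 over all genes, and -0.07 in wild-type fish, against -0.00. The transgenic count was 8 without saline fish 18, 9 without saline fish 16 and 35 without cisplatin fish 21. Wild-type counts fell to 2 without any 1 of fish 34, 36, 38, 40, 41 and 42 and to 3 without fish 39. With all libraries of low TMM factor left out there were 28 wild-type calls, 11 higher and 17 lower, and 27 transgenic calls, all lower.

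ENSORLG00000000017 was 1 of the members lower with cisplatin than with saline in transgenic fish without overlap. In transgenic fish it lay between 0.798 and 3.51 CPM (median 1.68) with cisplatin, against 6.75, 11.2, 14.4, 17.9 and 27.1 CPM in saline. Its untreated transgenic fish had 1.69, 1.99, 2.24, 2.97 and 2.99 CPM. Cisplatin fish thus lay below all saline fish and within or below the untreated range, but for the highest of them (log2 fold change -3.19 with SE 0.32, adjusted p = 1.10e-05). High saline levels chose the members, which favours a lower call and separation here, so both are only described. In wild-type fish the gene had 2.19, 3.42, 3.50, 4.78 and 5.30 CPM with cisplatin, against 4.84, 7.60, 11.4, 12.6 and 15.1 CPM in saline, with overlap and no call. Trametinib fish of both genotypes, at 4.57 to 36.2 CPM (median 11.1) when transgenic and 8.09, 9.58, 13.1, 14.5 and 25.3 CPM when wild type, overlapped their DMSO fish.

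The 5 wild-type cisplatin calls, of which the third and the fourth are named after their values were seen, were ENSORLG00000003181, ENSORLG00000009297, ENSORLG00000001406, ENSORLG00000006186 and ENSORLG00000005547, with log2 fold changes of -4.67, -5.34, -1.97, -3.11 and -2.43 and adjusted p between 0.00348 and 0.0439. Cisplatin and saline fish did not overlap for any of the 5. The calls and the high saline levels that chose the members favour such separation. No share over all genes was taken for it, and these calls are only described. Of the 5, all but ENSORLG00000006186 were also called in transgenic fish, and no such share over all genes was taken. ENSORLG00000009297 varied widely without cisplatin: wild-type fish had 2.87, 3.68, 5.96, 7.17 and 7.40 CPM with cisplatin, against 16.0, 49.9, 84.1, 219 and 721 CPM in saline. In untreated wild-type fish it stood at 2.62, 3.38, 5.95, 7.85 and 12.0 CPM, which covers the cisplatin range. Its call was lost without any 1 of saline fish 34, 36 and 37 and cisplatin fish 38 to 42, and the log2 fold change was -4.12 without fish 34. The transgenic difference of ENSORLG00000006161 between cisplatin and saline, -4.19 (SE 0.72, adjusted p = 0.00725), was -2.55 and no longer called without saline fish 18, which held 22.9 CPM.

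Trametinib against DMSO gave higher calls in both genotypes. The vehicle levels that chose the members do not favour this direction, but the filter did so for the members that passed it only through their trametinib fish, which are 1 of the 7 transgenic and 2 of the 11 wild-type higher calls below. The number of higher calls was not tested between the drugs, and for cisplatin in wild-type fish it depended on the libraries and the tool, as given above. In transgenic fish 7 members were called, all higher (0.962% of all genes were called higher, and 0.444% lower). For lower levels there, 4 members had an unadjusted p under 0.05 and DESeq2 called 0, with no share over all genes taken. In wild-type fish 26 were called (5.23% of all genes), 11 of them higher (1.61%) and 15 lower (3.62%). The median log2 fold change over the members was 0.13 in transgenic fish, against -0.02 over all genes, and -0.21 in wild-type fish, against 0.01. Of the 7 transgenic calls 4 were also among the 11 higher wild-type calls, which is only described, since no such share over all genes was taken. These 4, the second named after its values were seen, were ENSORLG00000005096, ENSORLG00000001406, ENSORLG00000003181 and ENSORLG00000013381, and all 4 also belong to the 18 members lower with cisplatin than with trametinib in both genotypes, a contrast with the same trametinib fish. The transgenic count was 4 without DMSO fish 53 or 56 and 3 without fish 54. The wild-type count was 5 without DMSO fish 46, 6 without DMSO fish 47, and 8, 6, 15 and 10 without trametinib fish 48, 49, 50 and 51, and 13 with every library of low TMM factor left out.

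ENSORLG00000005096 separated trametinib from every other group of wild-type fish. It stood at 34.7, 42.8, 42.9, 135 and 179.5 CPM in wild-type trametinib fish, against 5.01, 8.98, 9.06, 9.84 and 20.8 CPM in DMSO (log2 fold change 3.03 with SE 0.40, adjusted p = 0.000124). In transgenic fish it ranged from 34.6 to 65.6 CPM (median 45.4) with trametinib, against 8.23, 9.80, 9.82, 9.84 and 10.1 CPM in DMSO (log2 fold change 2.30 with SE 0.36, adjusted p = 0.00119). Trametinib and DMSO fish did not overlap in either genotype. Cisplatin and saline fish stood near the DMSO level, at 5.44 to 9.49 CPM and 6.54 to 11.2 CPM when wild type, and untreated fish lower, at 2.19 to 3.87 CPM. Among transgenic fish only saline fish 17 and cisplatin fish 21, both of low TMM factor, reached the trametinib range, at 42.4 and 40.1 CPM. For ENSORLG00000013381, which the filter favoured and whose values are given above, the log2 fold change of trametinib over DMSO was 4.66 in transgenic fish (SE 0.80, adjusted p = 0.00235) and 3.91 in wild-type fish (SE 0.78, adjusted p = 0.00789).

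Lower calls with trametinib were found in wild-type fish alone; the difference between genotypes of this contrast was not tested. ENSORLG00000003947 stood at the trametinib levels given above in wild-type fish, against 8.00, 10.3, 10.8, 19.8 and 24.5 CPM in DMSO (log2 fold change -1.39 with SE 0.34, adjusted p = 0.0232). ENSORLG00000012255 had 1.22, 3.33, 3.35, 3.49 and 4.53 CPM with trametinib, against 5.30, 6.81, 7.001, 7.43 and 8.39 CPM in DMSO (log2 fold change -1.13 with SE 0.33, adjusted p = 0.0443). Neither gene showed overlap between these groups. High DMSO levels chose the members, which favours lower calls and separation here, so both are only described. Untreated wild-type fish had 1.72 to 5.10 CPM of the first and 1.73 to 2.97 CPM of the second. Both calls were lost without the libraries of low TMM factor, of which wild-type DMSO fish 47 is in this comparison, and without several single fish. For the first these were DMSO fish 46 and 47 and trametinib fish 48 and 49, and for the second DMSO fish 43, 45, 46 and 47 and trametinib fish 48 to 51.

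Within the drug groups the members were not a single unit. The deviations of the 30 drug fish from their group means were correlated between members with a median r of 0.082 (quartiles -0.157 and 0.326), beside a median of 0.015 (quartiles -0.402 and 0.443) among every 10th gene by score. Over the 26 drug fish with a TMM factor of at least 0.8, members had a median r of 0.091 (quartiles -0.128 and 0.327). Every 10th gene then had a median of -0.00748 (quartiles -0.217 and 0.214). The upper quartile of the members thus lay below that of every 10th gene over 30 fish and above it over 26. Neither order was tested. All such values share the same 30 libraries or 26 of them. Joined at an average r of 0.4, the members fell into 4 blocks of at least 20 genes, with 48, 31, 26 and 23 members, and 72 stayed outside. In the blocks of 48 and 26 members the median r was 0.64 and 0.57 over the 30 fish and 0.31 and 0.17 over the 26 left after the libraries of low TMM factor were removed. The blocks of 31 and 23 members did not weaken in this way, with 0.52 each, against 0.60 and 0.52 without those libraries. Of the 18 members lower with cisplatin in both genotypes 14 lie outside all 4 blocks and 1 lies in the block of 23. ENSORLG00000007271, which is not a member, was correlated above 0.8 with 1 member (ENSORLG00000018788, r = 0.836 over 30 fish, chosen after its value was seen), and its median r with the members was -0.047. The share of all genes above 0.8 was not taken.

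The blocks were formed after the values were seen, so their levels and calls are described without a test. The block of 23 members, which holds ENSORLG00000000017, ENSORLG00000003947, ENSORLG00000012255 and ENSORLG00000009716, stood low in transgenic cisplatin fish. Its median log2 difference from untreated fish was 0.75 for cisplatin, 1.94 for trametinib, 2.15 for saline and 1.55 for DMSO in transgenic fish, and 1.46, 1.53, 1.74 and 2.12 in wild-type fish. It holds 9 of the 15 members called lower with cisplatin than with saline in transgenic fish (0.268% of all genes). Of the 36 called lower with cisplatin than with trametinib there (6.18% of all genes) it holds 12. Among these 12 is ENSORLG00000009200, named after its values were seen, which passed the filter only through its trametinib fish. This favours such a call. The block of 23 holds none of the 5 called lower with cisplatin than with saline in wild-type fish (0.0268% of all genes). The block of 31 members stood highest in wild-type trametinib fish, at 2.28 against 1.81 in DMSO. It holds 7 of the 11 members called higher there (1.61% of all genes). Among the 7 is ENSORLG00000015363, named after its values were seen. It passed the filter only through its trametinib fish, which favours such a call. The block of 48 members holds 12 of the 22 members called higher with cisplatin than with trametinib in transgenic fish (6.2% of all genes). It also holds 7 of the 15 called lower with trametinib than with DMSO in wild-type fish (3.62% of all genes).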

How the data were processed

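The members of the gene set, the comparisons and the rule for naming genes were chosen with earlier results of these data known. The authors deposited raw read counts per gene, 20459 genes in 60 columns, each matched to a sample by name. The submitters' processing notes name featureCounts and TopHat2 (version 2.2.4). Build, annotation, strand setting and multi-mapping are not given in the labels, which leaves overlapping genes and near-identical copies uncertain.

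CPM were computed with TMM factors over all 60 libraries in edgeR 4.0.16 (R 4.3.3), log2 CPM with a prior count of 2. Of the 170 pairs of libraries within groups, compared by chi-square over genes, none agreed within sampling noise (smallest value 45.9 per gene). Genes were tested with edgeR's quasi-likelihood F test (filterByExpr, TMM, robust dispersion) with Benjamini-Hochberg adjustment over all genes, and called at an adjusted p under 0.05. There were 9 comparisons in 3 fits: the 30 drug fish (18743 genes tested), cisplatin and saline fish (18690) and trametinib and DMSO fish (18706). Standard errors come from the F statistic. All 200 members passed every filter. The first comparison of each fit was run on simulated counts with the same dispersion for all genes and no library of low TMM factor built in. That check does not cover the libraries of low TMM factor in the data.

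Named genes are the 2 of highest score, the 2 of highest mean CPM, the pair on each side of the boundary of the set, and per comparison and direction up to 2 called members of largest fold change without overlap, or else the one of smallest adjusted p. Alternatives were other scaling, filters and prior counts, DESeq2 1.42.0, a single fit of all 10 groups, and leaving out libraries. Leaving out fish of the groups of 10 was added after the data were seen. No gene lists could be tested, as no identifier matched a symbol.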

Additional observations from a re-analysis of the deposited data

Results flagged for a closer look

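The 10 groups, of 5 or 10 fish, were examined for each of the 17 members named by rule and for the level per fish over all members, 180 groups in all. In 25 of them 1 fish stood apart from the rest by Dixon's criterion at 95%, and these values came from 16 different fish. Chance alone marks about 1 group in 20 where values are normally distributed. This was not checked for CPM, so the 25 are not read as an excess. For the level over all members only untreated wild-type fish 72 stood apart, at -0.113 against 0 to 0.00505 in the other 4. This level subtracts the median of the same 5 untreated fish, which pulls their values to 0. Nothing is therefore read from this flag.

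Some of these fish are libraries of low TMM factor. Transgenic saline fish 17 had 322 CPM of ENSORLG00000001198, against 51.7 to 106 CPM in the others, and 6168 CPM of ENSORLG00000004943, against 1022 to 1352 CPM. Transgenic cisplatin fish 21 had 4640.3 CPM of ENSORLG00000004943, against 954 to 2570 CPM, and 40.1 CPM of ENSORLG00000005096, against 5.67 to 23.8 CPM. Transgenic cisplatin fish 31 had 3.51 CPM of ENSORLG00000000017, against 0.798 to 2.15 CPM, and 26.1 CPM of ENSORLG00000009297, against 1.49 to 9.54 CPM. For ENSORLG00000017742, at the boundary of the set, 3 such fish were apart: cisplatin fish 21 at 259.6 CPM against 19.1 to 75.6 CPM, trametinib fish 63 at 48.6 CPM against 13.1 to 24.5 CPM and saline fish 17 at 296.8 CPM against 18.6 to 40.7 CPM.

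Wild-type saline fish 34 was apart for ENSORLG00000013381, at 3.99 CPM against 0.0835 to 0.760 CPM, and for ENSORLG00000009297, at 721 CPM against 16.0 to 219 CPM. Transgenic trametinib fish 60 was apart for ENSORLG00000006161, at 113 CPM against 3.37 to 44.6 CPM, and for ENSORLG00000009297, at 895 CPM against 7.45 to 424 CPM. Wild-type DMSO fish 44 had 1.32 CPM of ENSORLG00000001198, against 25.6 to 34.8 CPM, and 31.5 CPM of ENSORLG00000005547, against 7.34 to 10.6 CPM. Transgenic DMSO fish 57 had 7.53 CPM of ENSORLG00000010103, against 24.6 to 30.04 CPM, and 8.23 CPM of ENSORLG00000005096, against 9.80 to 10.1 CPM.

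The remaining fish were apart for 1 gene each. Transgenic saline fish 18 had 22.9 CPM of ENSORLG00000006161, against 1.03 to 3.48 CPM, transgenic DMSO fish 55 had 9.63 CPM of ENSORLG00000003181, against 2.70 to 4.61 CPM, and untreated transgenic fish 75 had 13.9 CPM of ENSORLG00000009297, against 2.55 to 4.599 CPM. In wild-type fish, trametinib fish 51 had 1.64 CPM of ENSORLG00000003947, against 6.04 to 7.45 CPM, and saline fish 36 had 4632 CPM of ENSORLG00000006367, against 2486 to 2996 CPM. Saline fish 37 had 24.3 CPM of ENSORLG00000005868, against 11.4 to 13.7 CPM, and untreated fish 71 had 0.224 CPM of ENSORLG00000013381, against 0.0160 to 0.0518 CPM.

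The difference between cisplatin and trametinib itself differed between genotypes for ENSORLG00000009716, with a log2 difference of -2.13 (SE 0.53), and for ENSORLG00000005868, with -1.12 (SE 0.22), transgenic minus wild-type fish. Adjusted p was 0.0351 and 0.00578 by edgeR's quasi-likelihood test.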

How the results depend on the processing

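The membership shared 194 of 200 genes with that under DESeq2 size factors, 191 under upper quartile scaling, 180 under library totals, 158 with group means in place of medians, all but 1 with a prior count of 0.5, 179 without the filter, 190 without the 6 low-TMM libraries and 179 to 196 when 1 fish was left out. The medians of the members over untreated fish moved by more than 1 SD between fish only under library totals, to 1.71 in transgenic saline, 1.36 in wild-type cisplatin, 1.63 in wild-type saline and 1.65 in wild-type DMSO fish. No group median and no fold change of a named gene changed sign under these alternatives, and the cause of the moves was not tested.

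Counts of called members under other settings are given without the share over all genes, which was not taken, and are only described. For the drug against drug counts, cisplatin minus trametinib in transgenic fish stayed within 57 to 67 under all settings (51 to 64 without 1 fish), and in wild-type fish it was 69 without the 6 low-TMM libraries (25 to 40 without 1 fish). The genotype counts were 21 for cisplatin (11 higher, 10 lower) and 16 for trametinib with DESeq2, and 19 and 24 without the 6 low-TMM libraries. All 10 groups in 1 fit gave 13 for trametinib. Leaving out 1 fish gave 4 to 15 and 5 to 10. The difference between genotypes had 1 call with DESeq2 size factors in edgeR, 15 with DESeq2, 12 with 1 fit and 24 without those libraries, and 1 to 13 without 1 fish.

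Cisplatin minus saline had 28 calls in transgenic and 15 in wild-type fish with DESeq2, 27 and 28 without the 6 low-TMM libraries (11 of the 28 higher, 17 lower), 31 in transgenic fish with 1 fit, and 8 to 35 and 2 to 5 without 1 fish. Trametinib minus DMSO had 13 in transgenic fish with DESeq2, 11 in transgenic and 17 in wild-type fish (11 higher, 6 lower) with 1 fit, 13 in wild-type fish without those libraries (10 higher, 3 lower), and 3 to 8 and 5 to 33 without 1 fish. Of these lists, the calls given in the report were all kept with DESeq2 except for 2 of the 58 of cisplatin minus trametinib in transgenic fish.

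Depth limits the rarest of the named members: ENSORLG00000013381 had no read in 3 transgenic cisplatin libraries. No paired analysis was possible because each fish number occurs once in the series, so no replicate block can be formed.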
